A study of Mus musculus with 8 samples.

Results

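The numbered zinc finger protein genes of the mouse are those whose symbol is Zfp followed by a number, and most of them encode proteins with C2H2 zinc fingers. Among the 51826 genes of the count table, 365 protein-coding genes carry such a symbol, and Zfp36 was set aside because it encodes an mRNA-binding protein with CCCH fingers. Of the other 364, the 234 members described here were selected on their level, a mean of at least 5 CPM over the 8 mice, where CPM is the count divided by the library's total and multiplied by 1000000. The level is therefore not a finding, and 130 genes lay under the minimum.

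RNA was sequenced from total splenocytes of female Balb/c mice, 4 of them given all-trans retinoic acid (tRA), the form of vitamin A that activates nuclear receptors, and 4 given its vehicle, canola oil, as controls. The dose of tRA was 1 mg/kg, given by mouth every day from weaning until 3 months of age, when the spleens of all 8 mice were taken, and none of the mice received pristane, the agent the study used to induce lupus. The treatment text of the sample labels gives this dose for the control mice as well, so the groups were taken from the sample titles. The comparison addresses how tRA given before lupus induction alters gene expression in the spleen. The counts on genes totaled 37539631, 31833853, 35924683 and 30919272 in control replicates 1 to 4 and 33755595, 31810417, 35165876 and 32042754 in tRA replicates 1 to 4, and every member had at least 119 counts in every library. The replicates are described as separate mice.

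A C2H2 finger is a short fold held by a zinc ion that reads a few bases of DNA, and arrays of such fingers joined by conserved linkers give each protein its own target sequence. The largest class also carries a KRAB box, which recruits the corepressor Trim28 (KAP1). Trim28 in turn brings in the methyltransferase Setdb1 and heterochromatin proteins that place and bind methylated lysine 9 of histone H3, and this silences retroelements and some genes. KRAB zinc finger genes lie in clusters that grew by repeated duplication, so neighbours often have similar sequences.

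In these splenocytes most members had slightly higher levels with tRA, and the number of members past an FDR of 0.1 was 0 in edgeR and 1 in DESeq2. In the quasi-likelihood test of edgeR, with Benjamini-Hochberg adjustment over all 16484 genes tested, 0 of the 234 members had an FDR under 0.1, against 0% of all genes, and the lowest FDR of a member was 0.757. At an unadjusted p under 0.05, 40 members were higher with tRA, where 2.94% of all genes tested were, and 6 were lower, where 3.55% were. All 234 members passed the filter on low counts. The log2 fold change of tRA over control was above 0 for 187 of them and below 0 for 47, and it was above 0 for 50.3% of all genes tested. The median was 0.11 for the members and 0.001 for all genes tested. DESeq2 called 1 member at an FDR under 0.1, Zfp677, where it called 0.198% of the genes to which it gave an adjusted p, and limma-voom called 0 members.

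The size of the difference was small for most members. The log2 fold changes ran from -0.43 for Zfp703 to 0.55 for Zfp719, and the middle 50% of members lay between 0.032 and 0.23. The median standard error of a member was 0.11 on the same scale, so a typical difference was about as large as its error. Above 0.3 there were 34 members, beside 7.09% of all genes tested, and under -0.3 there were 4, beside 9.20%. In 15 members every tRA mouse was above every control mouse, where 1.91% of all genes tested had this pattern, and in 4 members every tRA mouse was below, where 1.63% had it. The 15 were Zfp677, Zfp606, Zfp40, Zfp397, Zfp953, Zfp950, Zfp59, Zfp62, Zfp712, Zfp160, Zfp961, Zfp251, Zfp110, Zfp81 and Zfp384, and the 4 were Zfp579, Zfp523, Zfp691 and Zfp771.

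The difference did not appear to the same degree in every tRA mouse. The mean over the members of the log2 CPM, taken as the deviation from each gene's mean over the 8 mice, was -0.053, -0.061, -0.061 and -0.064 in control replicates 1 to 4 and -0.034, 0.082, 0.094 and 0.097 in tRA replicates 1 to 4. The controls lay close together, tRA replicates 2 to 4 stood clearly above them, and tRA replicate 1 was only just above the highest control. Of the 234 members, 81, 69, 92 and 94 were above their own mean in control replicates 1 to 4, and 103, 163, 167 and 169 in tRA replicates 1 to 4. Together the members took 0.870, 0.878, 0.819 and 0.877% of the counts in the controls and 0.860, 0.929, 0.979 and 0.979% in the tRA mice. In RNA of whole splenocytes, fewer cells that express a gene and less of its RNA in each cell cannot be told apart.

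Single mice moved the counts of members. The 40 members higher at an unadjusted p under 0.05 became 26 when control replicate 1 was left out and 23 when control replicate 4 was. They became 21, 24 and 19 when tRA replicates 2, 3 and 4 were left out, and 57 without tRA replicate 1. The share of all genes tested that met the same rule ran from 1.56% without tRA replicate 4 to 4.94% without tRA replicate 1. The 15 members with every tRA mouse above became 57 without tRA replicate 1, where 5.70% of all genes tested did. They became 23, 24, 30 and 21 without control replicates 1 to 4, where 3.43%, 3.29%, 3.61% and 3.29% did. Without tRA replicates 2 to 4 they numbered 18, 22 and 18, where 2.84%, 3.43% and 2.68% did. Full separation is easier to reach with fewer mice, and why the counts differed between left-out mice was not tested. The 6 lower members became 10 without tRA replicate 1, where 7.68% of all genes tested were lower, a larger share than among the members. They became 3 without control replicate 2 or tRA replicate 2, where 3.97% and 2.79% of all genes were lower. The 4 members with every tRA mouse below became 9 without tRA replicate 1, beside 6.95% of all genes tested. The median of the members was 0.14 without tRA replicate 1 and lay between 0.095 and 0.12 when any other mouse was left out.

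The members fall into classes by sequence. A KRAB box pattern was found in the translated coding sequence of 125 members and not in the other 109, and a missing match says only that the pattern was not found. Of the KRAB members 110 were positive, that is with a log2 fold change above 0, and 15 were negative, with a median of 0.16. Among them 29 were higher (23.2%) and 0 lower at an unadjusted p under 0.05, beside 2.94% and 3.55% of all genes tested. In 12 (9.6%) every tRA mouse was above every control mouse, beside 1.91% of all genes tested. Among the members without a match 77 were positive and 32 negative, with a median of 0.069. At an unadjusted p under 0.05, 11 were higher (10.1%) and 6 lower (5.50%). In 3 members (2.75%) every tRA mouse was above and in 4 (3.67%) every tRA mouse was below, beside 1.91% and 1.63% of all genes tested. The median of the members without a match was 0.036 when control replicate 3 was omitted and 0.105 when tRA replicate 1 was, while that of the KRAB members lay between 0.14 and 0.20 whichever mouse was left out. The difference between the classes was not tested, because they were formed with the results known.

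**Figure D1:**
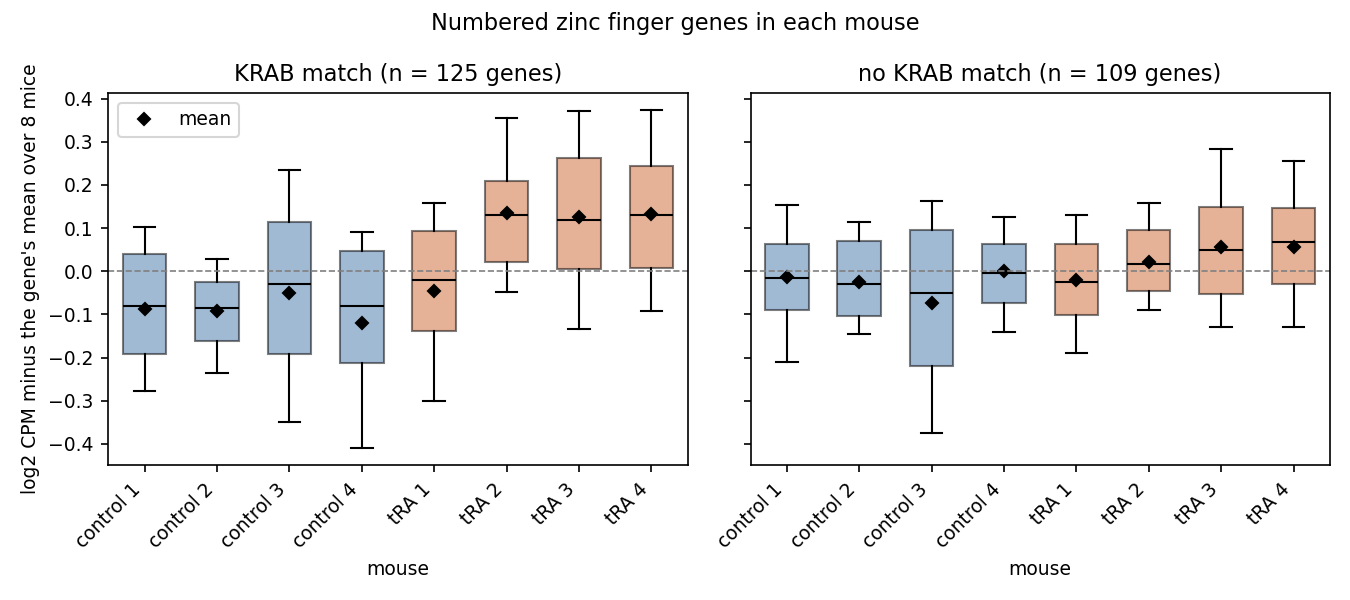
Deviation of each member's log2 CPM from its mean over the 8 mice, by mouse, for the 125 members with a KRAB match and the 109 without one. Boxes span the middle 50% of genes with the median as a line, whiskers run from the 10th to the 90th percentile, and diamonds are means, which for KRAB members were -0.087, -0.093, -0.049 and -0.12 in the controls and -0.046, 0.14, 0.13 and 0.13 in the tRA mice.

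The KRAB members of tRA replicates 2 to 4 were again together, with mean deviations of 0.14, 0.13 and 0.13, and tRA replicate 1, at -0.046, was level with control replicate 3, at -0.049. For the members without a KRAB match the means were -0.021, 0.021, 0.056 and 0.056 in tRA replicates 1 to 4. There tRA replicate 1 fell inside the control range, which ran from -0.074 to near 0.

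Counts of fingers gave another division. The 3 members with no match to the C2H2 pattern, Zfp839, Zfp330 and Zfp703, all had log2 fold changes below 0, though 1 of them was above 0 with library size alone or with some mice left out. Of the 24 members with 1 to 3 fingers 15 were positive (median 0.034), and of the 39 with 4 to 7 fingers 24 were (median 0.037). More fingers went with more positive members, 58 of 73 with 8 to 11 fingers (median 0.11), 47 of 51 with 12 to 15 (median 0.13) and 43 of 44 with 16 or more (median 0.23). Among these 44 the exception was Zfp407, at -0.10. For 1 to 3 fingers the median became 0.053 or 0.021 when control replicate 2 or 4 was omitted, and 0.007 or 0.020 when tRA replicate 1 or 4 was. It was 0.006 with the length and GC offset and 0.062 with library size alone, which gave 0.067 for 4 to 7 fingers. The medians for 8 or more fingers stayed within 1.5 times their value whichever mouse was left out, and with the offset that for 12 to 15 fingers was 0.081. For the 3 members with no match the median of -0.075 became -0.11 when control replicate 2 was omitted, and -0.18 or -0.013 when tRA replicate 1 or 4 was. At an unadjusted p under 0.05, 16 of the 44 were higher and 0 were lower, beside 2.94% and 3.55% of all genes tested. Members with many fingers also had lower GC content, with a median of 40.2% for 16 or more fingers and 49.98% for 1 to 3.

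Base composition and transcript length went with the fold change over all genes. The members had a median GC content of 45.6% and a median transcript of 3409.5 bp, beside 50.7% and 2902 bp for the 12912 other protein-coding genes tested. Among those other genes the median log2 fold change was 0.035 in the lowest quartile of GC content, 0.011 in the next, then -0.016, and -0.047 in the highest quartile. The members had medians of 0.17, 0.093, 0.063 and 0.009 in the same quartiles, with 118, 41, 36 and 39 genes, so they lay above the other genes in each. By length, other genes had a median of -0.089 in the quartile of the shortest transcripts and 0.041 in that of the longest, and the members 0.041 and 0.11. With an offset for length and GC content in each library, 25 members were higher at an unadjusted p under 0.05, beside 3.22% of all genes tested in that fit, and 2 were lower, beside 2.26%. Then 183 were positive and the median was 0.079. In 15 members every tRA mouse was above every control mouse with this offset, beside 2.38% of all genes tested.

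**Figure D2:**
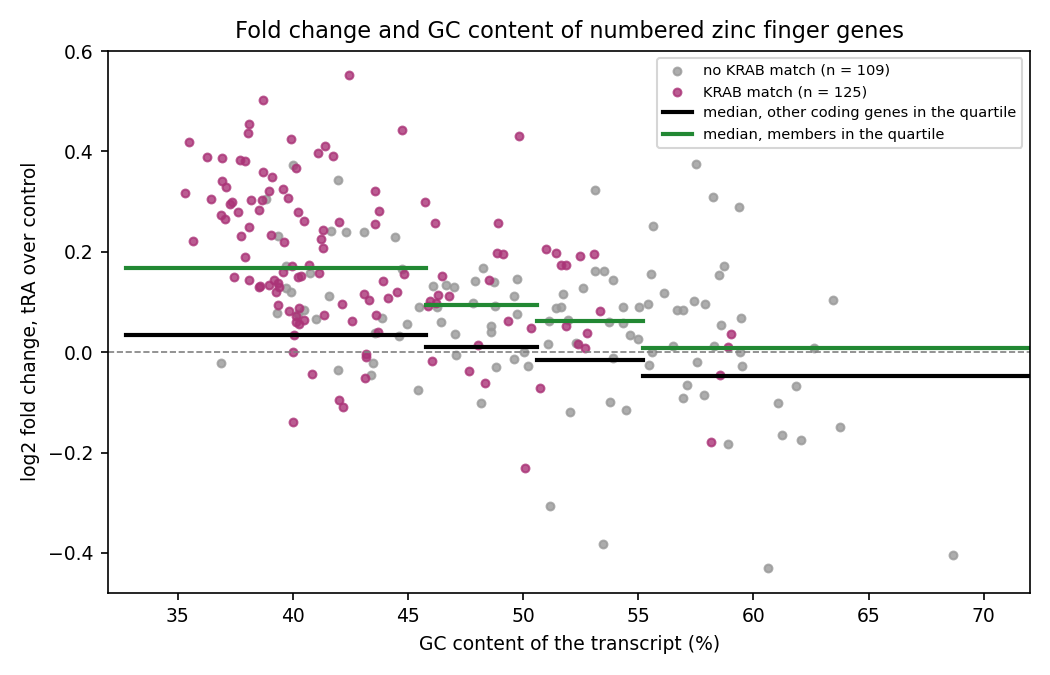
Log2 fold change of tRA over control against the GC content of the transcript for the 234 members, coloured by KRAB match. Horizontal lines give, for each GC quartile of the protein-coding genes tested, the median of the members (green) and of the other genes (black), and the members' line is the higher in each quartile, at 0.17 against 0.035 in the lowest.

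KRAB members are concentrated at low GC content, and within the lowest GC quartile 90 of them had a median of 0.22 while 28 members without a match had 0.10. In the other quartiles the medians of the KRAB members were 0.10, 0.13 and -0.018 (19, 12 and 4 genes), beside 0.083, 0.062 and 0.012 for those without a match (22, 24 and 35 genes). With the length and GC offset the median was 0.11 for KRAB members and 0.050 for the others.

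Position on the chromosome grouped the members too. With neighbours defined as lying within 500 kb, 147 members fell into 33 clusters and 87 lay alone. Of the clustered members 103 had a KRAB match, 126 were positive and the median was 0.14, while of those alone 22 had a KRAB match, 61 were positive and the median was 0.068. The largest cluster, 19 members on chromosome 17 from 21008903 to 23564238, runs from Zfp160 to Zfp213 and had 17 positive members with a median of 0.30. Its 2 negative members were Zfp54, at -0.00015, and Zfp213, its only member without a KRAB match, at -0.028. On chromosome 13, from 67038596 to 67827002, all 12 members were positive, from 0.16 for Zfp87 to 0.50 for Zfp759, with a median of 0.31.

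Among the 14 clusters with at least 4 members were smaller ones with other values. Zfp709, Zfp882, Zfp617 and Zfp961, on chromosome 8 from 71882019 to 71993792, had a median of 0.40, with values between 0.26 and 0.42. Zfp882 and Zfp617 overlap on the same strand, so their reads are not fully separate. On chromosome 7, the 12 members between 29768552 and 30169750 had a median of 0.12 with 10 positive, and the median was 0.077 without control replicate 3 and 0.073 without tRA replicate 3. The 4 members between 4915217 and 5036768 of the same chromosome, Zfp628, Zfp579, Zfp524 and Zfp865, had no KRAB match, a median GC content of 61.2% and a median of -0.033, with 2 positive, and this median ran from -0.060 without tRA replicate 3 to 0.004 without tRA replicate 2. It was -0.057, -0.014 and -0.019 without control replicates 1, 2 and 3. With the length and GC offset, the medians of the clusters on chromosomes 17, 13 and 8 were 0.20, 0.235 and 0.345, and that of these 4 members was 0.004.

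**Figure D3:**
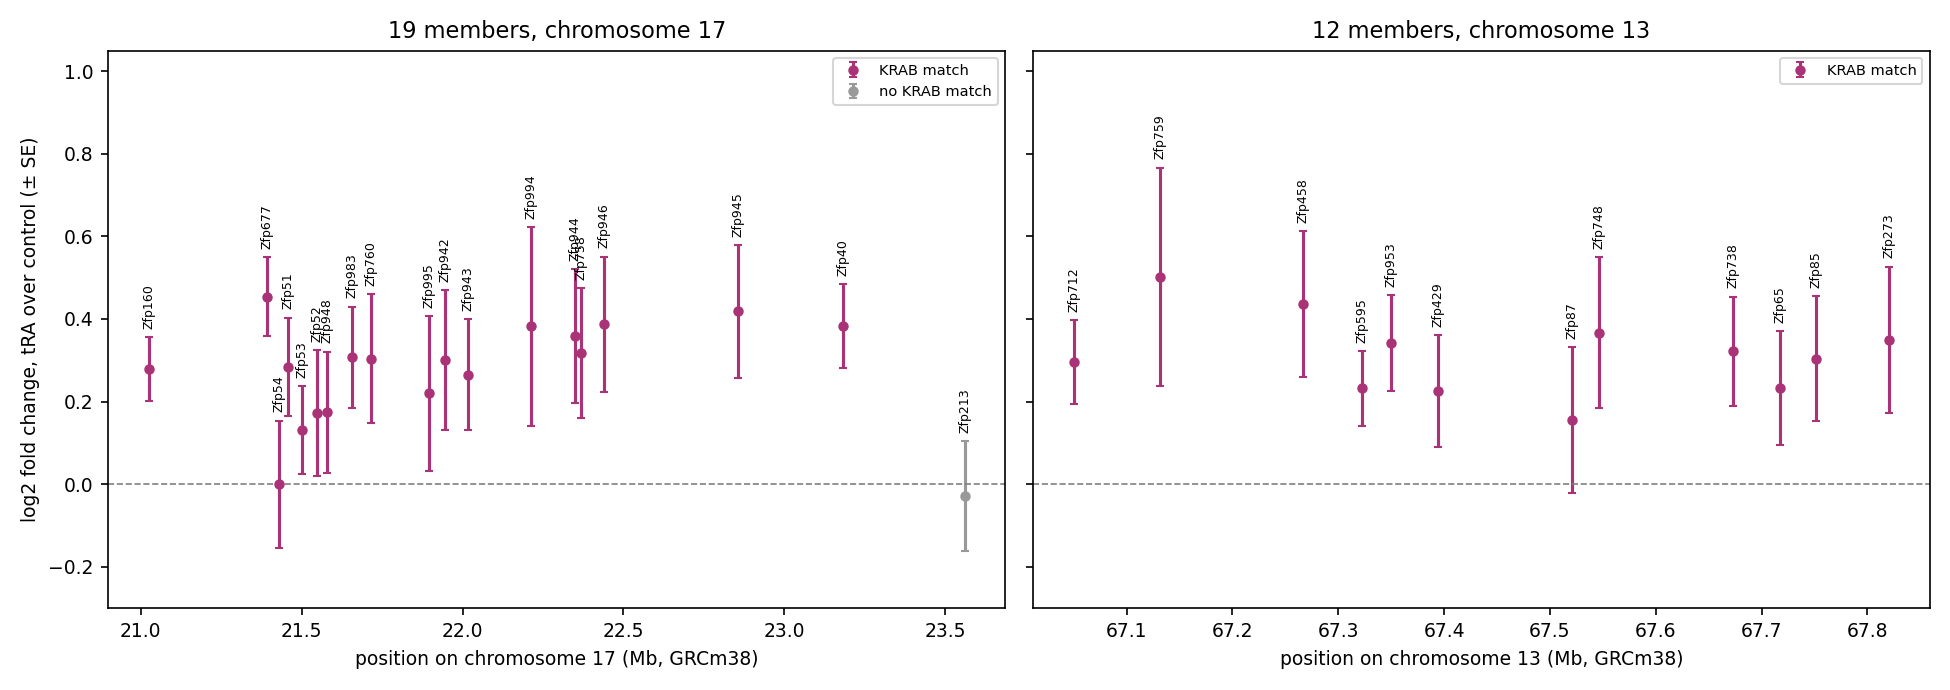
Log2 fold change of tRA over control (± standard error, n = 4 mice per group) by position for the 19 members of the chromosome 17 cluster and the 12 of the chromosome 13 cluster. Points are coloured by KRAB match; 17 of the 19 and all 12 lie above 0.

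Because duplicated genes can share reads, the share of each member's transcript found in transcripts of other genes was computed in windows of 50 bases. Its median was 0.105%, and 46 members shared 5% or more, of which Zfp59, Zfp984 and Zfp932 shared more than 50%. Values of those 3 are uncertain, since the authors' counting could split or drop such reads. Among the 159 members that shared less than 1%, 124 were positive with a median of 0.096. Exons overlapped another gene on the same strand for 23 members and on the opposite strand for 59, and the strand setting of the counting is not given in the sources used here.

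Zfp677, Zfp40 and Zfp950 are displayed by the study among its differentially expressed genes, so their direction and separation here are not independent evidence. The study's cutoff was an FDR under 0.1 in DESeq2, and in the DESeq2 fit here only Zfp677 met it. All are KRAB genes with long finger arrays (16, 16 and 17 matches) and low GC content (38.1%, 37.7% and 37.1%). Zfp677 (ENSMUSG00000062743), on chromosome 17 from 21383748 to 21399265 in GRCm38, was measured at 18.0, 20.3, 17.2 and 16.5 CPM in control replicates 1 to 4 and at 21.5, 26.2, 25.8 and 25.2 CPM in tRA replicates 1 to 4. Every tRA mouse was above every control mouse, with tRA replicate 1 the nearest to the controls. The log2 fold change was 0.45 (standard error 0.095, 95% interval 0.24 to 0.66), with an FDR of 0.757 in edgeR and 0.0246 by DESeq2. The exact permutation test (two-sided) of 4 mice against 4 gave p = 0.0286, which is the smallest value it can give.

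Zfp40 (ENSMUSG00000002617), on chromosome 17 from 23173869 to 23193252 and in the same cluster, was at 8.69, 9.40, 9.74 and 8.37 CPM in control replicates 1 to 4 and at 10.7, 12.2, 12.6 and 11.7 CPM in tRA replicates 1 to 4. The groups again did not overlap, and the log2 fold change was 0.38 (standard error 0.10) with an FDR of 0.757 in edgeR and 0.127 by DESeq2. For Zfp950 (ENSMUSG00000074733), on chromosome 19 from 61053840 to 61140840, the values were 24.7, 23.6, 22.8 and 23.0 CPM in control replicates 1 to 4 and 25.9, 31.8, 29.2 and 31.2 CPM in tRA replicates 1 to 4. The controls varied little, and tRA replicate 1 was above them by about 1 CPM and the other tRA mice by more. The log2 fold change was 0.33 (standard error 0.082), with the same FDR in edgeR and 0.126 by DESeq2. Without these 3 genes, 37 members were higher at an unadjusted p under 0.05, beside 2.94% of all genes tested, and the median was 0.11.

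Besides Zfp677, the highest log2 fold changes belonged to Zfp719, Zfp759, Zfp39, Zfp458, Zfp169, Zfp709 and Zfp945, which all have a KRAB match and 12 to 20 fingers. Zfp719 (ENSMUSG00000030469), on chromosome 7 from 43579610 to 43593235, was at 6.20, 5.76, 3.64 and 6.56 CPM in control replicates 1 to 4 and at 6.51, 8.16, 8.60 and 9.20 CPM in tRA replicates 1 to 4. Control replicate 3 was the lowest and tRA replicate 1 lay just under the highest control, so the groups overlapped. Its log2 fold change of 0.55 (standard error 0.19) had an FDR of 0.757 in edgeR, and the exact permutation test (two-sided, n = 4 per group) gave p = 0.0571. Because Zfp719 was named for its high fold change in these same mice, this p is not independent evidence.

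Zfp759 was at 4.55, 5.32, 4.94 and 6.50 CPM in control replicates 1 to 4 and at 3.63, 7.97, 10.3 and 8.22 CPM in tRA replicates 1 to 4. Here tRA replicate 1 was the lowest of all 8 mice while the other tRA mice were above every control, and the interval of the log2 fold change of 0.50 (-0.080 to 1.09) included 0. The log2 fold change of Zfp759 was 0.31 without tRA replicate 3. Zfp458, of the same cluster on chromosome 13, gave 7.93, 7.97, 6.33 and 7.66 CPM with vehicle and 6.57, 11.4, 10.8 and 11.6 CPM with tRA. Again tRA replicate 1 was within the controls and the others above them, with a log2 fold change of 0.44 (standard error 0.18). Zfp39 was at 10.7, 12.01, 10.5 and 13.5 CPM with vehicle and 11.1, 15.5, 20.2 and 16.7 CPM with tRA. Its fold change was 0.44 on the log2 scale (standard error 0.17), with tRA replicate 1 inside the control range.

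Zfp169 varied widely within the groups. It was measured at 15.5, 15.03, 6.65 and 21.5 CPM in control replicates 1 to 4 and at 7.88, 17.4, 24.5 and 29.1 CPM in tRA replicates 1 to 4, so both groups spanned low and high mice, and its log2 fold change of 0.43 had a standard error of 0.39. Single mice decided its size, since it was 0.18 without control replicate 3 or tRA replicate 4, 0.67 with control replicate 4 left out and 0.69 with tRA replicate 1 left out. For Zfp709 the values were 10.7, 9.37, 7.14 and 7.24 CPM in the controls and 9.90, 12.4, 12.3 and 11.6 CPM in the tRA mice. For Zfp945 they were 19.5, 24.3, 16.4 and 15.4 CPM and 24.0, 29.4, 19.6 and 27.9 CPM. Their log2 fold changes were 0.42 and 0.42 (standard errors 0.15 and 0.16), and in both genes at least 1 tRA mouse lay below the highest control.

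Outside the study's displayed genes and the 8 highest and 8 lowest fold changes, the lowest unadjusted p-values belonged to Zfp397, Zfp961, Zfp160, Zfp606 and Zfp62, and in each every tRA mouse was above every control mouse. They were picked by p in these same mice, so this separation is not independent evidence. Zfp62, which has 25 finger matches and no KRAB match, was at 113, 107, 87.0 and 107 CPM in control replicates 1 to 4 and at 114, 130.1, 134 and 134 CPM in tRA replicates 1 to 4. The margin was narrow, as tRA replicate 1 exceeded control replicate 1 by less than 1 CPM, and the log2 fold change was 0.30 (standard error 0.090). Zfp961, of the chromosome 8 cluster, was at 39.2, 35.6, 37.0 and 34.5 CPM with vehicle and 45.4, 45.6, 43.1 and 41.0 CPM with tRA. Here tRA replicate 1 was among the high mice, and the log2 fold change was 0.26 (standard error 0.070). Exons of Zfp961 overlap Cyp4f18 on the opposite strand. Zfp606 was at 13.3, 11.9, 12.9 and 10.9 CPM with vehicle and 13.5, 16.6, 16.3 and 18.0 CPM with tRA, and its lowest tRA mouse was close to its highest control. For Zfp397 the values were 30.9, 29.9, 27.1 and 28.3 CPM and 32.01, 39.0, 35.6 and 43.8 CPM, and for Zfp160, at the start of the chromosome 17 cluster, 22.8, 24.6, 23.5 and 24.2 CPM and 26.4, 28.3, 28.6 and 31.96 CPM. Log2 fold changes were 0.39 for Zfp606, 0.37 for Zfp397 and 0.28 for Zfp160 (standard errors 0.11, 0.099 and 0.078; 0.18 for Zfp160 with the length and GC offset), and all 5 genes had an FDR of 0.757 in edgeR.

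**Figure D4:**
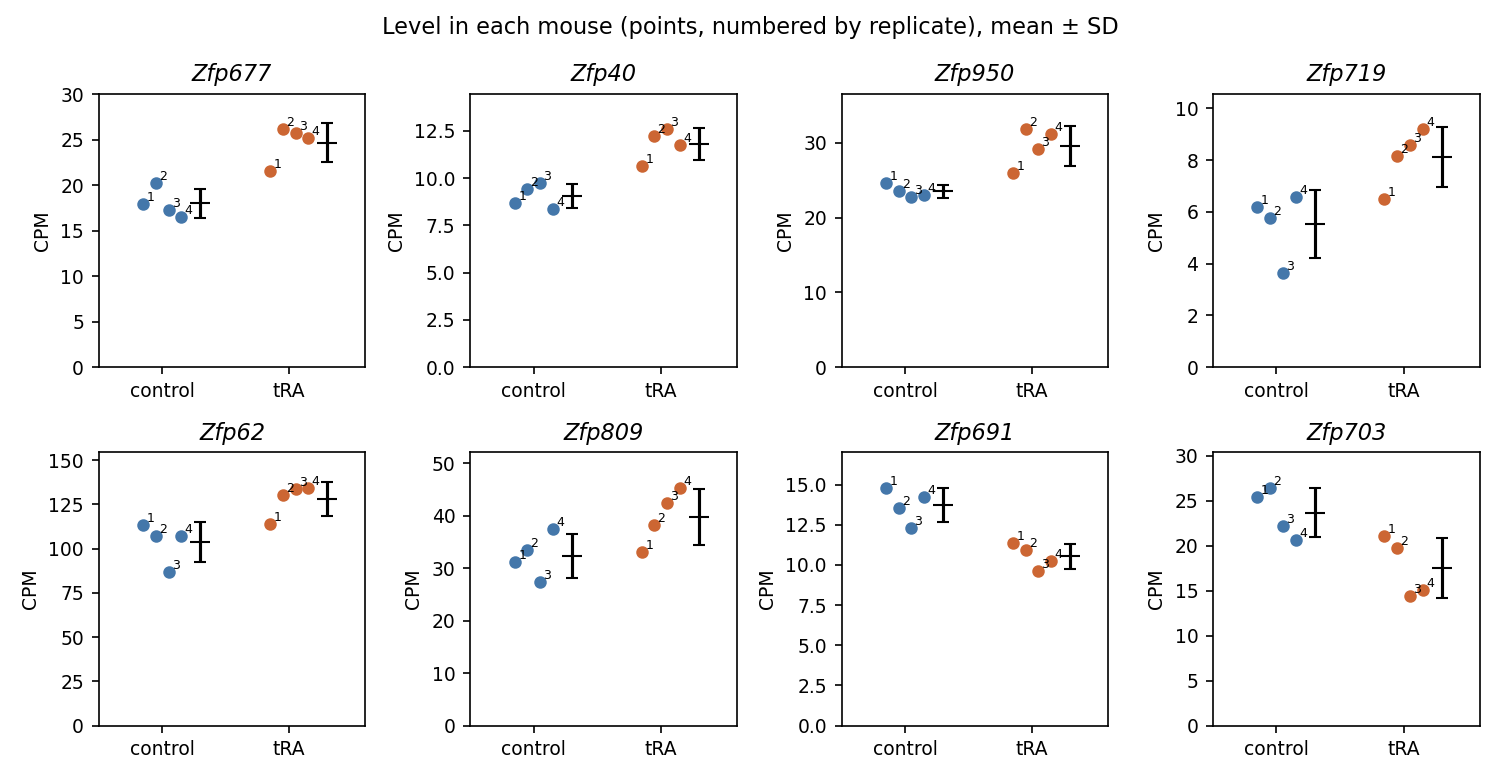
Level of 8 members in each mouse in CPM, with points numbered by replicate and bars for the mean ± SD (n = 4 mice per group). Zfp677, Zfp40, Zfp950 and Zfp62 have every tRA mouse above every control mouse, Zfp691 has every tRA mouse below, and in Zfp719, Zfp809 and Zfp703 the groups overlap.

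At the other end stood Zfp703, Zfp771, Zfp691, Zfp622, Zfp954, Zfp524, Zfp707 and Zfp219, of which only Zfp954 and Zfp707 have a KRAB match. Their GC content ran from 50.1% for Zfp954 to 68.7% for Zfp771. Zfp703 (ENSMUSG00000085795), a corepressor of the NET family on chromosome 8 from 26977325 to 26981461, was at 25.4, 26.5, 22.2 and 20.6 CPM in control replicates 1 to 4 and at 21.1, 19.7, 14.4 and 15.03 CPM in tRA replicates 1 to 4. tRA replicates 3 and 4 were the lowest, tRA replicate 1 was above 1 control, and the log2 fold change was -0.43 (standard error 0.14) with an FDR of 0.757 in edgeR. Exons of Zfp703 overlap a gene on the opposite strand.

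Zfp691 (ENSMUSG00000045268), on chromosome 4 from 119169513 to 119174195, was at 14.8, 13.6, 12.3 and 14.3 CPM in control replicates 1 to 4 and at 11.4, 10.96, 9.60 and 10.3 CPM in tRA replicates 1 to 4. All 4 tRA mice were below all 4 controls, and the log2 fold change was -0.38 (standard error 0.10), with p = 0.0286 by the exact permutation test (two-sided, n = 4 per group) and an FDR of 0.757 in edgeR. Zfp691 was named for its low fold change in these same mice, so its separation and p are not independent evidence. Zfp771, with a short transcript (1484 bp) and 8 fingers, was at 8.23, 6.63, 7.31 and 6.82 CPM with vehicle and 6.51, 5.29, 5.12 and 5.01 CPM with tRA. The highest tRA mouse was just under the lowest control, and the log2 fold change of -0.40 was -0.19 with the length and GC offset. Zfp622, which takes part in the maturation of the large ribosomal subunit, was at 93.2, 83.2, 95.4 and 81.7 CPM with vehicle and 91.4, 76.2, 57.0 and 61.1 CPM with tRA. tRA replicate 1 was within the controls and tRA replicates 3 and 4 were far below them, with a log2 fold change of -0.31 (standard error 0.13). For Zfp954, Zfp524, Zfp707 and Zfp219 the log2 fold changes were -0.23, -0.18, -0.18 and -0.18, and every interval included 0. With the length and GC offset Zfp524, Zfp707 and Zfp219 were at -0.068, -0.090 and -0.10. Zfp954 was at -0.076 without control replicate 3. Zfp524 was at -0.022 without that mouse, -0.089 without tRA replicate 2 and -0.41 without tRA replicate 1. Zfp524 shares 46.0% of its transcript windows with other genes, and its value is uncertain.

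Several members have known roles in lymphocytes or in transcription. Zfp318, which is required for IgD expression on mature B cells and drew the most counts of any member (a mean of 300.7 CPM), was at 298, 299, 251 and 329.8 CPM in control replicates 1 to 4 and at 268, 302, 305 and 350.3 CPM in tRA replicates 1 to 4. The groups overlapped widely, with a log2 fold change of 0.057 (95% interval -0.17 to 0.28). Zfp335, a nuclear regulator needed for the maturation of T cells, was at 77.5, 89.2, 64.8 and 87.7 CPM with vehicle and 80.3, 94.5, 112 and 103 CPM with tRA. tRA replicates 2 to 4 were above every control and tRA replicate 1 was not, and the log2 fold change was 0.29 (standard error 0.12, FDR 0.757 in edgeR). Exons of Zfp335 overlap Pcif1 on the opposite strand.

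Zfp143, an activator that binds many promoters, was at 49.7, 51.7, 47.8 and 50.1 CPM with vehicle and 51.3, 55.9, 58.4 and 57.8 CPM with tRA, and only tRA replicate 1 was below a control. Its log2 fold change was 0.16 (standard error 0.066). Zfp281, a factor of pluripotent cells, had a log2 fold change of 0.24 (standard error 0.11). Values for Zfp91, a ubiquitin ligase of the NF-kappa-B pathway, Zfp148, Zfp217, Zfp207, a spindle and kinetochore protein, and Zfp106, an RNA-binding protein, were 0.052, 0.12, 0.12, 0.097 and -0.0065, and each interval included 0. Omitting single mice gave 0.021 (tRA replicate 4) to 0.093 (control replicate 1) for Zfp91, 0.061 (control replicate 3) to 0.20 (control replicate 1) for Zfp148, 0.072 (tRA replicate 4) for Zfp217 and 0.060 (tRA replicate 4) to 0.15 (control replicate 3) for Zfp207. With the length and GC offset Zfp91, Zfp148 and Zfp217 were at 0.010, 0.057 and 0.068. The sign for Zfp106 was positive with library size alone.

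Zfp809 and Zfp568 are KRAB members with well-studied targets. Zfp809, which binds the primer binding site of murine retroviruses and silences them through Trim28, was at 31.1, 33.5, 27.4 and 37.5 CPM in control replicates 1 to 4 and at 33.1, 38.2, 42.5 and 45.3 CPM in tRA replicates 1 to 4. tRA replicates 2 to 4 were above every control and tRA replicate 1 lay between the controls, so the groups overlapped, with a log2 fold change of 0.30 (standard error 0.12, 95% interval 0.039 to 0.56). For Zfp568, which represses a placental transcript of Igf2 in the embryo, the mean was 33.5 ± 8.02 CPM (SD, n = 4) in the controls and 31.9 ± 3.42 CPM in the tRA mice, with a log2 fold change of -0.071 with an interval of -0.43 to 0.29. Zfp57, which maintains methylation at imprinted loci, had a mean of 0.559 CPM and was not a member.

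Levels of different genes were compared per kilobase of transcript. The median member was at 6.86 CPM per kb, a value that the selection on mean CPM affects. Zfp740 had the highest level per length, 234 with vehicle and 249.2 with tRA, followed by Zfp207 (144 with vehicle and 154 with tRA), Zfp868 (57.0 with vehicle and 60.0 with tRA), Zfp384 (42.5 with vehicle and 45.2 with tRA) and Zfp869 (40.1 with vehicle and 41.3 with tRA). Zfp384 was at 131, 132, 131 and 129 CPM with vehicle and 133, 133, 144 and 145 CPM with tRA. Its controls spanned about 3 CPM and every tRA mouse was above them, for a log2 fold change of only 0.089 (standard error 0.058). For the other 4 the groups overlapped, with log2 fold changes from 0.041 to 0.097 that single mice moved widely. Zfp869 ran from 0.0066 (tRA replicate 1 omitted) to 0.091 (tRA replicate 4 omitted) and Zfp868 from 0.022 (tRA replicate 1 omitted) to 0.13 (control replicate 3 omitted). Zfp740 was at 0.059 when control replicate 4 was omitted and at 0.17 with the length and GC offset. Of the 58 members with the highest levels per length 17 had a KRAB match, and their median log2 fold change was 0.065. Of the 59 with the lowest levels 43 had one, and the median was 0.15.

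Near the minimum, Zfp775 (5.24 CPM), Zfp524 (5.62) and Zfp963 (5.82) were just inside, and Zfp456 (4.86), Zfp58 (4.83) and Zfp768 (4.81) just outside. Of the 130 genes under the minimum, 72 passed the filter on low counts, and 57 of these were positive, with a median of 0.155 that became 0.24 without tRA replicate 1. A gene can pass that filter through the group in which it is higher. Their mean deviations were -0.071, -0.035, -0.15 and -0.063 in control replicates 1 to 4 and -0.095, 0.12, 0.20 and 0.095 in tRA replicates 1 to 4. As among the members, tRA replicates 2 to 4 were the high mice.

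Genes with the same domains but another kind of symbol gave a comparison outside the naming rule. Of 91 protein-coding genes with a KRAB match and at least 3 fingers but no numbered Zfp symbol, 51 were tested, 45 were positive, 9 were higher and 0 lower at an unadjusted p under 0.05, and the median was 0.21, or 0.13 with the length and GC offset. These 51, too, may have passed the filter on low counts through the group in which they are higher. Their mean deviations were -0.083, -0.091, -0.074 and -0.11 with vehicle and -0.10, 0.15, 0.18 and 0.13 with tRA. In this set tRA replicates 2 to 4 were above every control and tRA replicate 1 lay within the control range. Among 155 tested genes with at least 3 fingers, no KRAB match and another symbol, 96 were positive with a median of 0.032, and 13 were higher and 3 lower at an unadjusted p under 0.05. Of 38 tested Zbtb genes, whose BTB domain recruits other corepressors, 27 were positive (median 0.064), with 4 higher and 0 lower by the same rule. Of 19 tested Zscan and Zkscan genes 12 were positive (median 0.041), with 2 higher and 0 lower. Over all genes tested, 2.94% were higher and 3.55% lower by this rule.

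Of the partners through which KRAB proteins act, Trim28 and Setdb1 had log2 fold changes nearer 0 than the median of the KRAB members, 0.16. This difference was not tested. Trim28 was at 255, 224, 258 and 239 CPM in control replicates 1 to 4 and at 263, 229, 220.1 and 224 CPM in tRA replicates 1 to 4. The groups overlapped, with a log2 fold change of -0.061 (95% interval -0.23 to 0.11). Setdb1 was at 97.1, 95.8, 94.4 and 100.9 CPM with vehicle and 102, 102, 107 and 92.7 CPM with tRA, for a log2 fold change of 0.052 (95% interval -0.086 to 0.19). Among the 29 genes listed for the Trim28 corepressor and the methylation of lysine 9 of histone H3, 19 were positive, 0 were higher or lower at an unadjusted p under 0.05, and the median was 0.039. The extremes of that list were Uhrf1, which recognises hemimethylated DNA, at -0.16 (standard error 0.14) and the methyltransferase Dnmt1 at 0.17 (standard error 0.11). Single mice moved these values, which ran from -0.32 (tRA replicate 3 omitted) to -0.096 (tRA replicate 1 omitted) for Uhrf1, and were 0.088 and 0.10 for Dnmt1 when control replicate 3 or tRA replicate 3 was omitted. Trim28 ran from -0.12 (tRA replicate 1 omitted) to -0.034 (tRA replicate 3 omitted) and Setdb1 from 0.022 (tRA replicate 3 omitted) to 0.089 (tRA replicate 4 omitted). Over the alternatives that kept all mice, Trim28 ran from -0.063 to -0.018 and Setdb1 from 0.017 to 0.081. Of the 5 genes of the HUSH silencing complex and its partners 5 were positive, and Fam208a, a core subunit, was higher at an unadjusted p under 0.05 with a log2 fold change of 0.26. By that rule 2.94% of all genes tested were higher. Of the 3 relatives of Trim28, Trim24 was at -0.032, Trim33 at 0.091, and Trim66 was too low to test.

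Zinc finger regulators of other kinds were listed as well. Of 41 C2H2 regulators of lymphocytes, 23 were positive with a median of 0.022. At an unadjusted p under 0.05 Ikzf5, Klf3 and Sp3 were higher and Egr1 lower, beside 2.94% and 3.55% of all genes tested. Zfp36, the gene set aside, encodes tristetraprolin, which binds AU-rich elements and destabilises mRNAs of cytokines, and it was at 2480.0, 2736, 2567 and 2469 CPM in control replicates 1 to 4 and at 2739.6, 2226, 1389 and 1596 CPM in tRA replicates 1 to 4. Both tRA replicates 3 and 4 were far below every control while tRA replicate 1 was above them, and the log2 fold change was -0.37 (standard error 0.18, FDR 0.778 in edgeR). Omitting tRA replicate 1 gave -0.56, and omitting tRA replicate 3 gave -0.23. All 3 tandem CCCH genes, Zfp36, Zfp36l1 and Zfp36l2, had negative values, with a median of -0.12.

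Several groups of genes that report on cell makeup or handling differed between the same mice. Of 91 tested genes with a symbol of Rpl or Rps followed by a number, 86 were negative, with a median of -0.26. They were chosen by symbol alone, so the list can hold genes that do not encode ribosomal proteins. Their median transcript was 860 bp. At an unadjusted p under 0.05, 37 were lower, beside 3.55% of all genes tested. The sum over all 98 genes of the count table with such a symbol, led by Rpl4, was 44843, 39522, 47558 and 41710.5 CPM in control replicates 1 to 4. It was 43823, 36441, 32198 and 34995 CPM in tRA replicates 1 to 4. tRA replicates 2 to 4 were below every control and tRA replicate 1 was within their range. Of 15 immediate early genes all were negative, 4 of them at an unadjusted p under 0.05, and their sum, led by Fos, was 20132, 19568, 17705 and 16774 CPM with vehicle and 19094, 15143, 7856 and 9476 CPM with tRA. tRA replicate 1 was as high as the controls, and tRA replicates 3 and 4 were the lowest. What part these differences have in the values of the members was not tested.

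Markers of cell types were summed as well. The 12 neutrophil granule genes, led by Ngp, were all lower with tRA, 9 of them at an unadjusted p under 0.05. By this rule 3.55% of all genes tested were lower and 2.94% higher. The 12 genes summed to 909, 1222, 1160.3 and 1046 CPM with vehicle and 534, 594, 591 and 935 CPM with tRA. tRA replicate 4 was within the controls and tRA replicates 1 to 3 were below them. What part this difference has in the values of the members was not tested. The 10 B cell markers, led by Cd79a, had 6 positive values and 0 past an unadjusted p of 0.05 (median 0.025), and the 10 T cell markers, led by Lck, had 8 positive values and 1 past it, Cd28 (median 0.11). B cell markers summed to 8373, 8177, 7476 and 7261 CPM with vehicle and 7636, 8067, 8458 and 8111 CPM with tRA, T cell markers to 1761, 1845, 2093 and 2151 CPM and 2098, 2037, 2172 and 2113 CPM. Every marker of both lists was detected, and the groups overlapped in both sums. Of 10 plasma cell markers, led by Jchain, 4 were lower and 0 higher at an unadjusted p under 0.05, and their sums were 1232, 1211, 1169 and 1390.4 CPM with vehicle and 1066, 1236, 1022 and 991 CPM with tRA.

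Markers of other cells gave no division by group. Of 9 tested erythroid genes, led by Hbb-bs, 0 passed an unadjusted p of 0.05, and their sums of 841, 1636, 2393 and 527 CPM with vehicle and 2256, 666, 3903 and 644 CPM with tRA varied widely in both groups. None of the 11 macrophage and dendritic cell genes, led by Csf1r, the 7 tested stromal and endothelial genes, led by Pecam1, or the 15 cell cycle genes, led by Pcna, passed it, with medians of -0.071, 0.027 and -0.078. Of 6 genes that splenocytes should lack, Ins2, Krt5 and Umod were at 0 in all 8 mice, and the most abundant, Gfap, was at 0.638 CPM. Mitochondrial genes took 5.36% ± 1.265 of the counts in the 4 controls (SD) and 5.73% ± 0.403 in the 4 tRA mice.

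Retinoic acid acts through nuclear receptors that bind DNA at pairs of short core motifs, most often AGGTCA or AGTTCA, so the promoters of the members were searched for these letters on both strands. RefSeq promoters (GRCm38.p6) could be matched by symbol for 199 of the 234 members, and the 250 bases before the start of transcription were read. AGGTCA was present in 13.8% of all 27025 promoters of this length, in 10.7% of those of tested protein-coding genes and in 10.1% of the members. For AGTTCA the shares were 11.9%, 8.82% and 12.6%. Among 36 promoters of members higher at an unadjusted p under 0.05, 2 held AGGTCA and 6 held AGTTCA. A match describes the letters only. The median GC content of these windows was 52.4% for KRAB members and 59.6% for members without a KRAB match and for tested protein-coding genes alike.

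The promoters of Zfp677, the only member called by DESeq2, Zfp950, Zfp719, with the highest log2 fold change, and Zfp691, with every tRA mouse below the controls, are shown 5′ to 3′ on the strand of the gene, with core motifs in capitals. They lie at chr17:21383498-21383747 (plus strand), chr19:61140841-61141090 (minus), chr7:43579336-43579585 (plus) and chr4:119174196-119174445 (minus). Neither motif occurs in the windows of Zfp677 and Zfp950, and those of Zfp719 and Zfp691 each hold TGAACT, the reverse complement of AGTTCA, 17 and 211 bases before the start. Other forms of the core motif and sequence beyond these windows were not searched, so nothing is said here of the elements that the study lists.
Zfp677: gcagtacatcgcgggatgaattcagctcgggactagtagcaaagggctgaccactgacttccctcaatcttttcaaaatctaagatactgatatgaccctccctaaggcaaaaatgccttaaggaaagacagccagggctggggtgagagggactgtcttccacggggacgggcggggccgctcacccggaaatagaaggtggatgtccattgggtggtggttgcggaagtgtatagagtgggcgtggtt
Zfp950: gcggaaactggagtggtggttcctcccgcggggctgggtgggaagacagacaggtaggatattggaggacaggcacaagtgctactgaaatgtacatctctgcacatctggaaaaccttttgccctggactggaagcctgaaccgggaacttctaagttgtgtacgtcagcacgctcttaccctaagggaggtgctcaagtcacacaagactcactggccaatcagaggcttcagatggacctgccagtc
Zfp719: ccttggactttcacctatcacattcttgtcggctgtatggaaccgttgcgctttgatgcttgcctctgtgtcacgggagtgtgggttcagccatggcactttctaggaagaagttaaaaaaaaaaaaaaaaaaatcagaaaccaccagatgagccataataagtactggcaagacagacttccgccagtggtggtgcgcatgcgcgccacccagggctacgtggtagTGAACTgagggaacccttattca
Zfp691: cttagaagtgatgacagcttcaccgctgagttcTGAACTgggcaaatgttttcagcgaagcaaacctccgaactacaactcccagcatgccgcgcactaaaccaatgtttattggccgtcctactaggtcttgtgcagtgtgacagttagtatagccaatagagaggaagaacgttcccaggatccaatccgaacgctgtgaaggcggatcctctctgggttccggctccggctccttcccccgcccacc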

How the data were processed

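The authors deposited raw read counts per Ensembl gene for 8 mice, without normalization. For trimming, alignment and counting the paper names ea-utils, Btrim, Bowtie2, Tophat2 and HTSeq, whereas the submitters' processing notes name STAR 2.5.2b and featureCounts 1.5.1. A further deposited file holds the authors' DESeq2 comparison and was not used. Annotation came from GENCODE M21, which is not the authors' release. Members, gene lists and sequence patterns were chosen with earlier results of these data known.

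Fits used edgeR 4.0.16 in R 4.3.3, with filterByExpr (10 counts), TMM and the quasi-likelihood test, and were tried on simulated data. CPM values of single mice are TMM-normalized, while mean CPM for selection and sums over lists use library totals. Log2 CPM carried a prior count of 0.5. All pairs of mice within a group differed beyond counting noise (chi-square over degrees of freedom at least 12.9). An exact permutation test over the 70 arrangements was run for single named genes. Fingers were counted as C, 2 to 4 residues, C, 12 residues, H, 3 to 5 residues, H in translated coding sequences, and KRAB boxes by short patterns of the A and B boxes. Genes were named by rule: the 3 that the study displays, the 8 highest and 8 lowest fold changes, the 5 lowest p-values not yet named, the 5 highest levels per length, 3 on either side of the minimum, Zfp36, Trim28, Setdb1, the extremes of their list, and members with a textbook role. Other genes named were chosen after their values were seen. Alternatives were DESeq2 1.42.0, limma-voom (limma 3.58.1), RLE, library size alone, other filters on low counts, protein-coding genes only, a block for replicate number, a loess offset on length and GC content (span 0.3, degree 1) without and with the block, other minimum levels, and leaving out the displayed genes or each mouse. Figures were drawn with matplotlib 3.10.9 in Python 3.11.15.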

Additional observations from a re-analysis of the deposited data

Results flagged for a closer look

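Among 102 groups of 4 mice compared for the named genes and the means over the members, 6 held a mouse that stood far from the other 3 by Dixon's criterion at the 95% level, where chance gives about 1 in 20. In 4 of the 6 the mouse was tRA replicate 1. Its mean deviation over the members was -0.034 on the log2 scale, against 0.082 to 0.097 in the other tRA mice, and over the KRAB members -0.046, against 0.13 to 0.14. Zfp458 was at 6.57 CPM in tRA replicate 1, against 10.8 to 11.6 in the others, and Zfp524 at 7.64 CPM, against 4.22 to 4.71. Zfp954 was at 48.8 CPM in control replicate 3, against 31.8 to 34.3 in the other controls. Zfp768 was at 4.03 CPM in tRA replicate 2, against 5.01 to 5.18 in the other tRA mice. No reason for these distances was tested.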

How the results depend on the processing

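The median of the members was positive under every alternative run, between 0.079 and 0.14, and from 0.095 to 0.14 when 1 mouse was left out; positive members numbered 159 (of 202 members at a mean of at least 10 CPM) to 221 (of 275 at a mean of at least 2 CPM), and 181 to 194 when 1 mouse was left out. Members called at an FDR under 0.1 numbered 0 under every alternative except DESeq2, which called 1. With the length and GC offset, 25 members were higher and 2 lower at an unadjusted p under 0.05 (3.22% and 2.26% of all genes tested), and with this offset and the replicate block 35 were higher and 3 lower (3.51% and 3.40% of all genes); the cause was not tested. Leaving out 1 mouse gave 0 called members each time, 19 to 57 higher members (1.56% to 4.94% of all genes), 3 to 10 lower members (2.37% to 7.68%) and 18 to 57 with every tRA mouse above (2.68% to 5.70%). Library size alone moved the median of all genes tested to 0.031 and that of the members to 0.14.

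Whether mice with the same replicate number were paired is not known. The correlations of deviations between mice with the same number were 0.14, -0.021, -0.017 and 0.25. Of the 8 mice, 3 correlated best with their own number. With 4 mice per group, these values cannot decide the question. With the replicate block, 41 members were higher and 4 lower at an unadjusted p under 0.05 (2.94% and 4.34% of all genes tested), 0 were called, 191 were positive and the median was 0.11.

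Of the 48 named genes, 23 moved by over 1.5 times or changed sign when some mouse was left out, and 41 kept their sign under all alternatives. The exceptions had values near 0: Zfp775 (-0.082 to 0.21 over the left-out mice), Zfp963 (-0.14 to 0.016), Zfp768 (-0.021 to 0.090), Zfp318 (-0.020 to 0.12), Zfp568 (-0.23 to 0.012), Zfp58 (-0.059 to 0.19, and -0.0016 with the length and GC offset) and Zfp106 (-0.044 to 0.045, and 0.021 with library size alone). The medians of the KRAB members and of the members without a match, chosen after seeing the data, ran from 0.11 to 0.20 and from 0.036 to 0.105. With 4 mice per group and a biological coefficient of variation of 0.152, log2 differences of about 0.1, the size of the median here, lie within the error of a single gene.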
